A study of Mus musculus with 2 samples.

Results

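The genes described here are those of the heat shock proteins and of the DNAJ (J domain) co-chaperones in mouse erythroid progenitors that over-expressed the long noncoding RNA ESlncRNA. They were taken from the array's gene names, as all names starting with Hspa, Hspb, Hspd, Hspe, Hsph, Hsp90a, Dnaja, Dnajb or Dnajc. Hspa5, the HSP70 of the endoplasmic reticulum (ER), was left out of the family and is given as a reference value. The rule used no measured value. It found 103 probes of 71 genes, out of 55681 probes and 36313 named genes or lincRNA intervals on the array. Of these genes, 26 carry heat shock protein names and 45 carry DNAJ names. A gene was tested if either channel of a probe stood well above background on each array, and 57 of the 71 passed. The 14 others were Hspa1a, Hspa1l, Hspa12a, Hspb2, Hspb3, Hspb7, Hspbap1, Dnajb7, Dnajb8, Dnajb13, Dnajc5b, Dnajc5g, Dnajc6 and Dnajc22, many of them known from testis, muscle or brain. Their ESlncRNA channel was not well above background on either array, and the vector channel was so on 1 array for 4 of them. Of the 57, 56 were well above background in both channels on both arrays. The other, Hspb8, passed on 1 array through the ESlncRNA channel alone.

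The study compared total RNA of erythroid progenitor cells (Lin-) from C57BL/6 fetal liver at E14.5. The cells were transduced either with the vector or with ESlncRNA, and both groups were sorted for GFP, so the controls also carry a transduced vector. RNA of both groups was hybridised together on each of 2 arrays (replicates 1 and 2), with ESlncRNA in Cy5 and vector in Cy3 both times. There was no dye swap, so a dye effect of a probe and the effect of ESlncRNA cannot be told apart. No source says whether the replicates stem from different cultures or mice, so p-values reflect only how far 2 arrays differ, and that spread may be technical. The transduced cells were a sorted population rather than single clones, and fewer cells of a type and less RNA per cell cannot be told apart in such bulk RNA.

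Chaperones of the HSP70 family bind and release unfolded protein in a cycle driven by ATP. J domain proteins deliver the client and trigger hydrolysis of ATP, and nucleotide exchange factors such as the HSP110 proteins reset the cycle. HSP90 acts on later folding steps, the small heat shock proteins hold unfolded clients without ATP, and the chaperonin HSP60 with its lid HSP10 folds proteins inside mitochondria. The transcription factor HSF1 raises many of these genes under heat or proteotoxic stress, and the unfolded protein response raises those of the ER. In erythroid cells of mouse and human, HSP70 protein is known to protect the factor GATA1 from cleavage by caspase.

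All ratios below are log2 ratios of ESlncRNA over vector, and levels are normalized log2 signals of 1 probe, which say nothing about another probe's level. Across the 2 arrays, 43.5% to 51% of the spots of a channel were well above background. The probe in the lincRNA interval taken as ESlncRNA (chromosome 4, 109076298 to 109076357, mm9, forward strand) read 8.56 and 8.47 with ESlncRNA and 6.34 and 6.28 with vector, where neither vector signal stood clear of background. It was at least 4.62-fold higher with ESlncRNA (adjusted p = 2.17e-07), from normalized log2 means of 8.52 against 6.31, the latter being a bound. Among the markers of the labelled cell type, 8 of 10 erythroid genes rose, by a median of 0.64 over the list, while Alas2 and Slc4a1 did not pass. Their summed linear signal was 132900 and 123500 with vector, and 204700 and 194400 with ESlncRNA. Markers of other cells moved the other way. All 8 granulocyte markers fell (median -4.49), with summed signals of 1088000 and 1217000 against 39230 and 45990. All 7 macrophage markers tested fell, from 12570 and 12200 to 1480 and 1483, with Emr1, Cd68 and C1qc not well above background in the ESlncRNA channel. The 6 megakaryocyte markers, the 4 mast cell and basophil markers tested and the 5 early progenitor markers all fell too, as did 4 of 6 hepatocyte and 4 of 5 endothelial markers. Apoa1, Apoa2 and Kdr did not pass. Of those that fell, Ms4a2, Ttr, Cdh5, Emcn and Tek were not well above background in the ESlncRNA channel. The summed endothelial signal was 2110 and 2417 with vector and 1977 and 2180 with ESlncRNA. All these cell types also use chaperones, and the part of any change in their share in the ratios below was not tested.

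Promoters are shown first for 5 members, namely 3 of the 4 genes with the long heat shock element described below, Hspb1 as the member of largest change, and the single gene with an ER stress element. The window of the remaining gene with the long element, Hspd1, overlaps that of Hspe1. Each is the RefSeq stretch from 250 bases before to 50 after the start of transcription (GRCm38.p6), written along the gene's own strand. Capitals mark a heat shock element, the site read by HSF1, except in Dnajc3, where they mark an ER stress element.

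Hspe1: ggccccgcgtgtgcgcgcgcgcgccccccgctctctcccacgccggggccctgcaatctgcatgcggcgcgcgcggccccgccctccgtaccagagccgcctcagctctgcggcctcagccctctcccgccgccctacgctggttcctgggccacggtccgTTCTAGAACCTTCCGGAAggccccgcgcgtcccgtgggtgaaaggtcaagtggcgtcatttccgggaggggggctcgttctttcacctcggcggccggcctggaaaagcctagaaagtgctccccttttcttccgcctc
Hsph1: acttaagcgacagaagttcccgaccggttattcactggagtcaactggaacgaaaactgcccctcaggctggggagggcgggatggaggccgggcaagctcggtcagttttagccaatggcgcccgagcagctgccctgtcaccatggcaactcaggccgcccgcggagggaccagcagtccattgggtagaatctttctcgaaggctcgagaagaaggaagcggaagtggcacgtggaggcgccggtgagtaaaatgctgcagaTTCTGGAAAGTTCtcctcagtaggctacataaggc
Dnajb6: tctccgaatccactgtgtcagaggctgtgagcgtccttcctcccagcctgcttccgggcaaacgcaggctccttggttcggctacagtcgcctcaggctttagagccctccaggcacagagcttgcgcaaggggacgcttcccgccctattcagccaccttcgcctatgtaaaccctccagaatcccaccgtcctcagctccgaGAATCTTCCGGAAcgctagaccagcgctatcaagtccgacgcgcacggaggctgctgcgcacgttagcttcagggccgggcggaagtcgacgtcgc
Hspb1: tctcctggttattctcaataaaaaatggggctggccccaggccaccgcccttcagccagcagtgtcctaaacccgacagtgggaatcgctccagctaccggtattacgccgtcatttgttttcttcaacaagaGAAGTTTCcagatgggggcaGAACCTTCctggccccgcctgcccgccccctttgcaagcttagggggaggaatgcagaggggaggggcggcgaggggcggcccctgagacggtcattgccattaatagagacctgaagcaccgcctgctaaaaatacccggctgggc
Dnajc3: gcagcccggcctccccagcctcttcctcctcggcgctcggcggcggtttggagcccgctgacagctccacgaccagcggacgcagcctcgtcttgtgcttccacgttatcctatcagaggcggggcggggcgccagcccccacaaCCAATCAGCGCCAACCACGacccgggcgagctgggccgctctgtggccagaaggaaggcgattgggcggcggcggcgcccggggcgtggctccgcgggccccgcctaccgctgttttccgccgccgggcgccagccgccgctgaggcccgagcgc

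These windows lie at chr1:55087898-55088197 on the forward strand (Hspe1), chr5:149636266-149636565 on the reverse strand (Hsph1), chr5:29735648-29735947 on the forward strand (Dnajb6), chr5:135887669-135887968 on the forward strand (Hspb1) and chr14:118937682-118937981 on the forward strand (Dnajc3). RefSeq promoters could be matched to 57 of the 71 genes, with 74 windows in all. A heat shock element of 3 units was searched as GAANNTTCNNGAA or TTCNNGAANNTTC, where N is any base, which covers both strands. It occurred in 198 of 32851 promoters (0.603%), and among the members in those of Dnajb6, Hspd1, Hspe1 and Hsph1. In Hspe1 the marked run holds 2 overlapping matches from 89 to 72 bases before the start. Hspd1 and Hspe1 lie head to head, their starts 216 bases apart, and a window of Hspd1 shares 285 bases with that of Hspe1, the element included. RefSeq gives Hspd1 another start as well, whose window shares 4 bases with that of Hspe1 and holds no such element. A shorter element of 2 units (GAANNTTC or TTCNNGAA), which also matches inside every longer one, stood in 15.1% of all promoters and in those of 15 members. The 2 matches marked in Hspb1 are of this shorter kind, and the promoters of other members that hold it alone are not shown. The ER stress element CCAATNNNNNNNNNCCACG (or CGTGGNNNNNNNNNATTGG on the other strand) was found in 39 promoters (0.119%), and Dnajc3 was the sole member with it. A match describes the letters of this window and no more.

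Taken as a family, the members changed by small amounts and in both directions. After normalization, 24 of the 57 tested members rose (42.1%) and 13 fell (22.8%) at a limma adjusted p under 0.05, where over all 19870 genes tested 26.3% rose and 36.8% fell. Without Hspb8, 23 of 56 rose. Their median ratio was 0.03, against -0.03 over all genes, and the members ranged from -1.30 to 0.80. In 52 of 57 the sign was the same on both arrays. Of the 37 members that passed, 32 changed by less than 1.5-fold. One member, Hspb1, changed by at least 2-fold on both arrays, where 0.604% of all genes did so upwards and 8.1% downwards. The ESlncRNA values of both arrays lay above both vector values for 25 members and below them for 19, where the same held for 31.7% and 41.6% of all genes. When the 2 channels of an array were not paired, 15 members rose and 9 fell, against 17.3% and 28.8% of all genes.

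**Figure D1:**
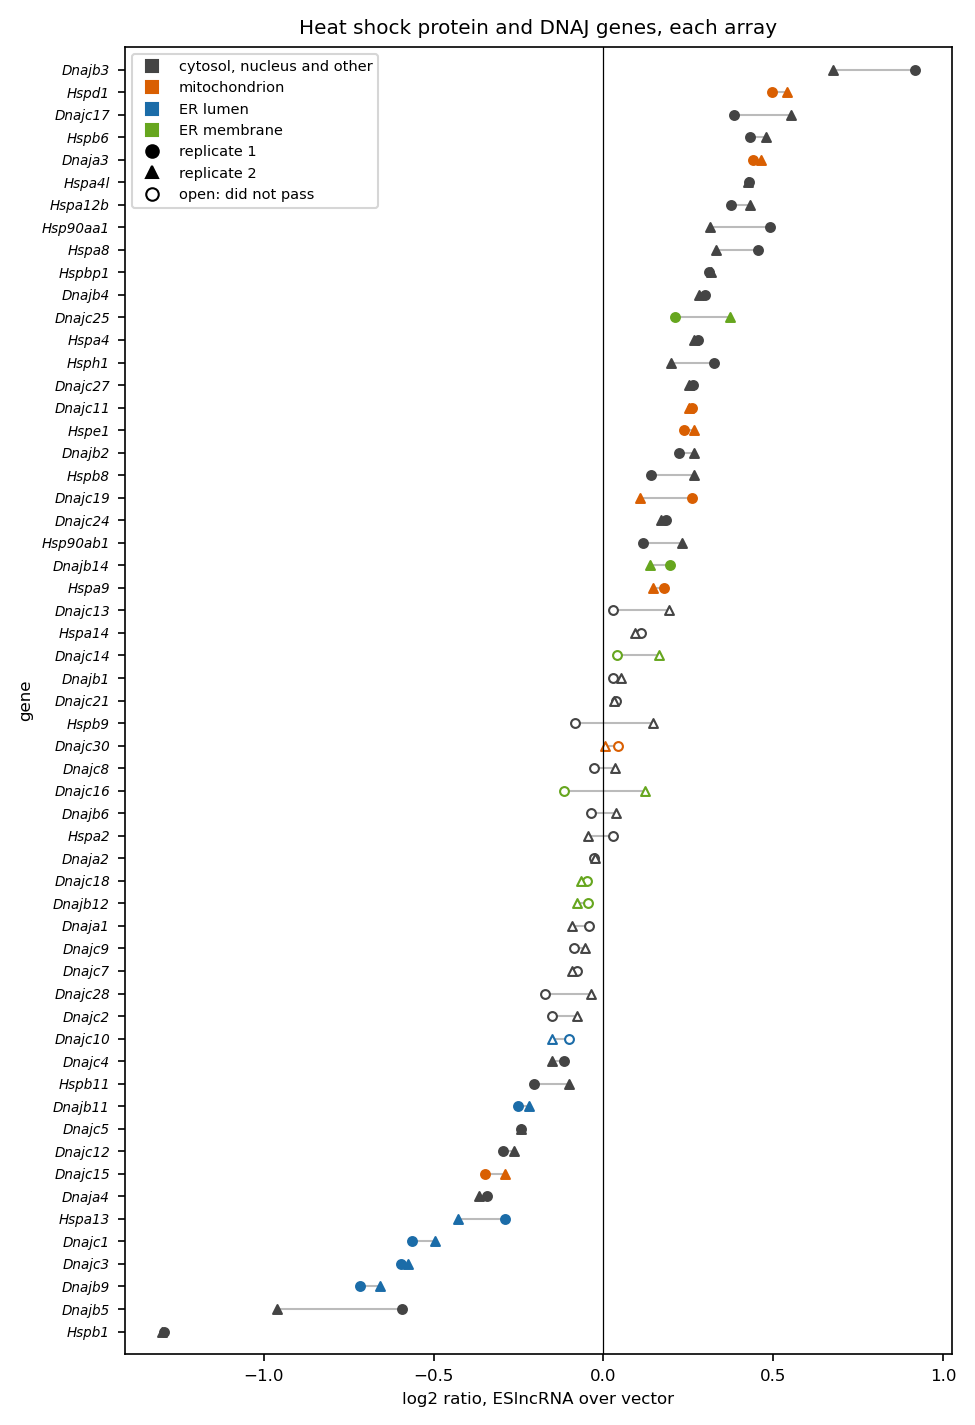
Log2 ratio of ESlncRNA over vector (x axis) for each of the 57 tested heat shock protein and DNAJ genes (y axis, sorted by mean), with 1 point per array; colours give the usual place of the protein and open points did not pass. Hspb1 stands alone at -1.29 and -1.30. All 6 ER lumen genes (blue) lie below 0, mixed with genes of other places, and Dnajb3 is highest at 0.92 and 0.68.

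Among the cytosolic HSP70, HSP110 and HSP90 genes, all those that passed on their brightest probe rose, but Hspa8 and Hspa4 had other probes that fell. Hspa8, the constitutive HSP70 (HSC70), read 16.65 and 16.96 with vector and 17.10 and 17.30 with ESlncRNA on its brightest probe, a ratio of 0.46 and 0.33. The ESlncRNA values were both above the vector values, and the mean of 0.39 ± 0.087 (SD, n = 2 arrays, 1.31-fold, adjusted p = 0.000951) passed. Its 3 probes disagree, as described with the probes below, and as their mean Hspa8 had a ratio of 0.04 (adjusted p = 0.455). Hsp90aa1, the stress-inducible HSP90, went from 15.76 and 15.87 to 16.26 and 16.18. Its groups did not overlap either (0.40 ± 0.13, 1.32-fold, adjusted p = 0.00135). Hsp90ab1, the constitutive HSP90, read 17.16 and 17.07 with vector and 17.28 and 17.30 with ESlncRNA. That was a smaller rise (0.17 ± 0.080, 1.13-fold, adjusted p = 0.0269). Hsp90ab1 did not pass with normexp offset 0 (adjusted p = 0.128), without background subtraction (0.0549), in the authors' deposited values (0.0829), without pairing of the channels (0.0868) or on the scanner's processed signals, where its ratio was -0.02. The proteins of the 3 HSP110 genes exchange the nucleotide of HSP70. Hsph1 (HSP105) went from 14.19 and 14.25 to 14.51 and 14.44 (0.26 ± 0.090, adjusted p = 0.00598), and did not pass in the authors' deposited values (adjusted p = 0.0516). Hspa4l went from 10.85 and 10.62 to 11.28 and 11.04, a ratio of 0.43 on both arrays (SD 0.0031, adjusted p = 0.000375). Hspa4 rose by 0.28 and 0.27 on its brightest probe (adjusted p = 0.00285), and since another probe fell its direction is uncertain too.

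The remaining cytosolic HSP70 genes and a regulator of the cycle varied. Hspbp1, which also releases nucleotide from HSP70, went from 12.88 and 12.56 to 13.19 and 12.88, so that the higher vector value and the lower ESlncRNA value nearly touch. It rose by 0.31 ± 0.0035 (adjusted p = 0.00153) and did not pass without pairing of the channels (adjusted p = 0.111). The divergent HSP70 gene Hspa12b, best known from endothelium, went from 8.50 and 8.52 to 8.88 and 8.95. Its groups did not overlap (0.40 ± 0.038, adjusted p = 0.000544). Of 5 endothelial markers 4 fell, of which 3 were not well above background in the ESlncRNA channel. Hspa14, whose protein works at the ribosome, had a ratio of 0.10 (adjusted p = 0.105), and the testis-enriched Hspa2 one of -0.01 (adjusted p = 0.89), with opposite signs on the 2 arrays.

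The gene most typical of a heat shock, Hspa1a, could not be tested. It has 1 probe, shown here because the same 60 bases are listed for transcripts of both Hspa1a and its near-identical copy Hspa1b, so that the pair is measured as one.

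Hspa1a probe: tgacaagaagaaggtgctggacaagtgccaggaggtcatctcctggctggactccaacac

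The probe lies at chr17:35107117-35107176 on the reverse strand (mm9). Its raw signal was 38.1 and 40.5 with vector and 59.2 and 64.0 with ESlncRNA, near the median of all spots in each channel (35.9 and 39.5 with vector, 67.8 and 76.3 with ESlncRNA). The vector channel was well above background on 1 array and the ESlncRNA channel on none. The inducible HSP70 genes therefore gave no ratio. HSF1 itself was measured, at a ratio of 0.10 for Hsf1 (adjusted p = 0.111), and its relative Hsf2 had a ratio of 0.03 (adjusted p = 0.63). Neither passed. Hsbp1, which encodes a small protein that binds HSF1, fell by 0.41 (adjusted p = 0.000524).

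Known targets of the heat shock response were read as a list of 19 genes, 17 of them tested, which overlaps the family. Of these 10 rose (58.8%) and 3 fell (17.6%), with a median of 0.20, against 26.3% and 36.8% of all genes. Without Hspb8, 9 of 16 rose. The 10 include Hspa8, whose probes disagree, and Hsp90ab1, which did not pass under several of the alternatives. Besides the genes above, Fkbp4 (a co-chaperone of HSP90) rose by 0.32 and Bag3 (a nucleotide exchange factor of HSP70) by 0.30. The 3 that fell were Hspb1 (-1.30), Cryab (-0.81) and Ahsa1 (-0.20). The changes of Hspb1 and Cryab were larger than the largest rise of the list, that of Hspd1 (0.52). Dnajb1, the inducible J protein HSP40, stayed near 0 with 14.68 and 14.75 in vector and 14.70 and 14.80 in ESlncRNA. Its groups overlapped and it did not pass (0.04 ± 0.018, adjusted p = 0.497). Dnaja1 read 15.19 and 15.28 against 15.15 and 15.18 and did not pass either (-0.07 ± 0.035, adjusted p = 0.264). Of the 4 members with a heat shock element of 3 units, Hspd1, Hspe1 and Hsph1 rose and Dnajb6 had ratios of -0.04 and 0.04 (adjusted p = 0.986). Of the 12 tested members with an element of at least 2 units, 7 rose (6 of 11 without Hspb8), 2 fell and 3 did not pass, and among the 46 tested members with a matched promoter 19 rose, 10 fell and 17 did not pass.

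The small heat shock proteins showed the widest spread. Hspb1 (HSP27 in human), an ATP-independent holdase that in human erythroid cells has been tied to turnover of GATA1, read 9.29 and 9.28 with vector and 7.99 and 7.98 with ESlncRNA. Both ESlncRNA values were far below both vector values, and at -1.30 ± 0.0041 (SD, n = 2 arrays, 2.46-fold lower, adjusted p = 1.91e-06) it was the largest change of the family. Its probe lies at chr5:136365366-136365425 (mm9, forward strand), and its promoter is shown above. Cryab, a small heat shock protein outside the name rule, fell with it by 0.81 (adjusted p = 2.29e-05). Hspb6, known from muscle, went the other way from 9.83 and 9.75 to 10.27 and 10.23. The groups did not overlap (0.46 ± 0.033, 1.37-fold, adjusted p = 0.0003). Hspb8, a partner of BAG3, was dim, at 6.36 and 6.32 with vector and 6.50 and 6.59 with ESlncRNA. Its vector channel was well above background on 1 array, so it entered the test partly through the channel where it is higher, and its adjusted p of 0.0164 is not counted in its support. Hspb11, whose protein is a part of the ciliary transport machinery, went from 9.99 and 9.79 to 9.78 and 9.69, with values that nearly touch. It fell by 0.15 ± 0.071 (adjusted p = 0.0402) and did not pass with normexp offset 0, in the authors' deposited values, without a background filter or without pairing (adjusted p from 0.0698 to 0.21). The testis gene Hspb9 had ratios of -0.08 and 0.15 and did not pass.

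**Figure D2:**
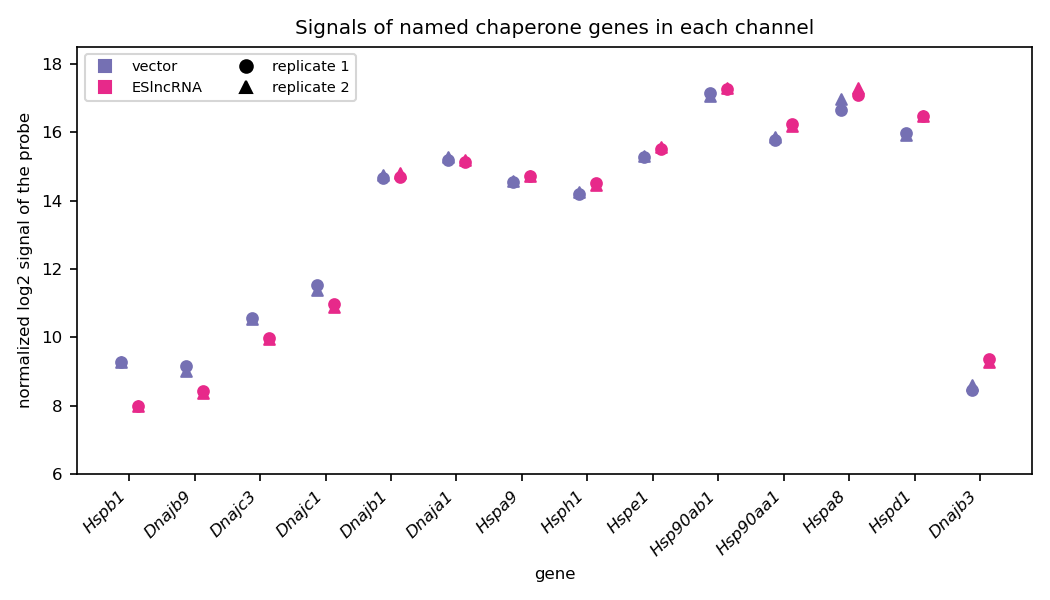
Normalized log2 signal (y axis) of 14 named genes (x axis) in the vector and ESlncRNA channels, with 1 point per array; levels are comparable within a gene only. In Hspb1 the vector values of 9.29 and 9.28 lie clear of 7.99 and 7.98, while in Dnajb1 the channels overlap.

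The DNAJA and DNAJB genes of the cytosol and nucleus moved both ways. Dnajb3, which is known mainly from testis, read 8.46 and 8.61 with vector and 9.37 and 9.28 with ESlncRNA. It had the highest ratio of the family, with groups that did not overlap (0.80 ± 0.17, 1.74-fold, adjusted p = 0.000103). Dnajb5, a J protein of muscle and heart, moved from 7.40 and 7.52 to 6.81 and 6.56. It fell on both arrays but unequally, with ratios of -0.59 and -0.96 (mean -0.78 ± 0.26, 1.71-fold lower, adjusted p = 0.000396), and on processed signals it did not pass at -1.22. Dnaja4, a J protein related to Dnaja1, went from 7.74 and 7.63 to 7.39 and 7.26 (-0.35 ± 0.018, adjusted p = 0.000911). It fell, and did not pass with median centring (adjusted p = 0.173) or on processed signals (adjusted p = 0.0513). Dnaja2 had a ratio of -0.03 (adjusted p = 0.663). Dnajb4, a relative of Dnajb1, went from 7.77 and 7.86 to 8.07 and 8.14. The groups did not overlap (0.29 ± 0.012, adjusted p = 0.00217). Dnajb2 rose by 0.25 on its brightest probe (adjusted p = 0.00491), with overlapping channel values because its level differed between the arrays.

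Of the DNAJC genes, whose proteins share little beyond the J domain, 6 rose, 6 fell and 12 of the 24 tested did not pass. That is 25% each way, where 26.3% of all genes rose and 36.8% fell. In the cytosol and nucleus, Dnajc17, a splicing-related gene, rose from 9.88 and 9.90 to 10.26 and 10.45, without overlap (0.47 ± 0.12, adjusted p = 0.000622). Dnajc27 rose by 0.26 (adjusted p = 0.00367), and Dnajc24, which serves the diphthamide modification of elongation factor 2, by 0.18 (adjusted p = 0.0176). Dnajc12, a partner of aromatic amino acid hydroxylases, went from 11.05 and 10.83 to 10.75 and 10.56 (-0.28 ± 0.024, adjusted p = 0.00273). Dnajc5, the cysteine string protein of vesicle release, went from 15.37 and 15.51 to 15.12 and 15.27 on its brightest probe (-0.24 ± 0.0015, adjusted p = 0.00483). Both fell, without overlap, and neither passed on processed signals (adjusted p of 0.115 and 0.112) or without pairing (0.0682 and 0.0617). Dnajc4 stood just inside the threshold, at -0.13 (adjusted p = 0.0495), and Dnajc10 just outside, at the same rounded ratio (adjusted p = 0.0615). Among those that did not pass were Dnajc2 of the ribosome (-0.11), Dnajc7 of the HSP70 and HSP90 handover (-0.08), Dnajc8 of splicing (0.00), Dnajc9 of histone supply (-0.07) and Dnajc21 of ribosome assembly (0.03). Another probe of Dnajc8 rose by 0.15 (adjusted p = 0.0381). Dnajc13, which acts on endosomes, had ratios of 0.03 and 0.19 (adjusted p = 0.138), and the dim Dnajc28 had -0.17 and -0.04 (adjusted p = 0.146).

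Chaperone genes whose proteins enter the mitochondrion were mostly higher. This grouping by place of the protein was made after the values had been seen and carries no test of its own. Of 8 such members 6 rose, 1 fell and 1 did not pass, with a median of 0.22, where 26.3% of all genes rose and 36.8% fell. With normexp offset 0, without background subtraction or without pairing 4 of the 8 rose. Of all 19870 genes, 3933, 4497 and 3446 rose under these settings, in that order. With median centring all 8 rose, where 63% of all genes did. Hspd1, the chaperonin HSP60, went from 15.98 and 15.93 to 16.48 and 16.47. The groups did not overlap (0.52 ± 0.030, 1.43-fold, adjusted p = 0.000164). Its lid partner Hspe1 (HSP10), which shares the promoter shown above, went from 15.29 and 15.31 to 15.52 and 15.58, again without overlap (0.25 ± 0.021, 1.19-fold, adjusted p = 0.00427). Dnaja3, the mitochondrial J protein TID1, moved from 13.23 and 13.22 to 13.67 and 13.68, with both ESlncRNA values higher (0.45 ± 0.017, 1.37-fold, adjusted p = 0.000295). Hspa9 (mortalin), the mitochondrial HSP70, which also serves iron-sulfur cluster assembly, read 14.56 and 14.58 against 14.73 and 14.73. Its rise was small (0.16 ± 0.021, 1.12-fold, adjusted p = 0.0246), and Hspa9 did not pass with normexp offset 0 (adjusted p = 0.0825), without background subtraction (0.0513) or without pairing (0.0845). Dnajc11, of the inner membrane organising system, rose by 0.26 on its brightest probe, and Dnajc19, of the import motor, by 0.18. Dnajc30 had ratios of 0.04 and 0.00 (adjusted p = 0.694). Dnajc15, the inner membrane J protein MCJ that restrains the respiratory chain, went from 13.93 and 13.94 to 13.58 and 13.65 and fell (-0.32 ± 0.041, adjusted p = 0.00164), but not on processed signals (adjusted p = 0.0527). In the wider list of 15 mitochondrial chaperones and proteases, 7 rose and 3 fell (median 0.13). The protease subunit gene Afg3l2 rose by 0.50, while Hscb, the co-chaperone of iron-sulfur cluster transfer, fell by 0.45.

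The J proteins and the HSP70 of the ER lumen were lower. Of 6 members 5 fell, none rose and Dnajc10 did not pass, with a median of -0.44, which becomes 0.04 with median centring, or -0.30 relative to all genes. Over all genes 36.8% fell and 26.3% rose. Dnajb9 (ERdj4), which brings HSPA5 to the stress sensor IRE1 and to clients for degradation, went from 9.14 and 9.02 to 8.43 and 8.36. Both ESlncRNA values were lower (-0.69 ± 0.041, 1.61-fold lower, adjusted p = 4.55e-05). Dnajc3 (P58IPK), a J protein that binds unfolded clients, went from 10.58 and 10.52 to 9.98 and 9.95. It too did not overlap (-0.59 ± 0.015, adjusted p = 8.64e-05), and did not pass with median centring (adjusted p = 0.22). Dnajc1 (ERdj1), which sits in the ER membrane with its J domain in the lumen, went from 11.53 and 11.39 to 10.97 and 10.89. This was 1.44-fold lower (-0.53 ± 0.048, adjusted p = 0.000165). Counted in the ER membrane instead, an alternative chosen after seeing the data, Dnajc1 leaves 4 of 5 lumen members lower with a median of -0.36, and gives the ER membrane 2 higher and 1 lower of 7. Hspa13, a truncated HSP70 of the secretory path, went from 9.79 and 9.82 to 9.50 and 9.39 (-0.36 ± 0.097, adjusted p = 0.00163). Dnajb11 (ERdj3), an abundant J protein of the lumen, went from 13.74 and 13.74 to 13.49 and 13.52 (-0.23 ± 0.023, adjusted p = 0.00576). Both fell without overlap on the probe read, but not on processed signals (adjusted p of 0.126 and 0.0616). Another kept probe of Hspa13 did not fall, at 0.05 (adjusted p = 0.476). Dnajc10 (ERdj5), a J protein that reduces disulfide bonds, read -0.10 and -0.15. Hspa5, to which these J proteins deliver clients, fell by 0.76 ± 0.049 (adjusted p = 2.97e-05). A list of 14 ER chaperones holds no member of the family, but it does include Hspa5. In this list 12 fell, Hspa5 among them, and none rose, with a median of -0.78. Those that fell include Serpinh1 (collagen chaperone, -2.00), Calr (calreticulin, -1.37) and Pdia6 (disulfide isomerase, -1.12). Of 6 members placed in the ER membrane, 2 rose and none fell. Dnajb14 rose by 0.17 on its brightest probe (adjusted p = 0.0236). Dnajc25 went from 9.18 and 9.22 to 9.39 and 9.59 (0.29 ± 0.11, adjusted p = 0.00502), but did not pass in the authors' deposited values (adjusted p = 0.0737). The other 4 did not pass, with ratios of -0.06 for Dnajb12 and Dnajc18, 0.00 for Dnajc16 and 0.10 for Dnajc14. In the same comparison all 8 granulocyte, 6 megakaryocyte, 4 mast cell and 5 early progenitor markers tested, and 4 of 7 macrophage markers, had ratios below the ER chaperone median. The same held for 3 of 6 hepatocyte, 3 of 5 endothelial and 0 of 10 erythroid markers. The part of these cell types in the ER values was not tested.

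**Figure D3:**
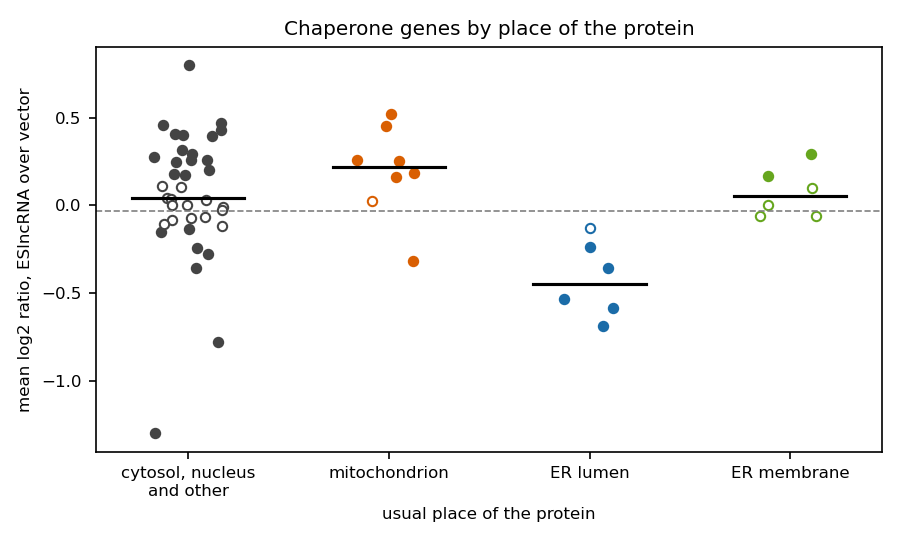
Mean log2 ratio of ESlncRNA over vector (y axis) for the 57 tested members by the usual place of the protein (x axis), with filled points for members that passed, a bar at each group's median and a dashed line at the median of all genes. The medians were 0.04 for cytosol, nucleus and other, 0.22 for the mitochondrion, -0.44 for the ER lumen (0.04 with median centring) and 0.05 for the ER membrane.

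Partners of these chaperones outside the family did not share 1 direction. Among 16 HSP70 co-chaperones 4 rose and 6 fell (median -0.06), with Bag2 up by 0.41 and Hspbp1 again in the list. Among 22 HSP90 co-chaperones 3 rose and 6 fell (median -0.07), and Ptges3, the p23 protein that closes the HSP90 cycle, fell by 0.37 while Itgb1bp2 rose by 0.34. The cytosolic chaperonin CCT, which folds actin and tubulin, had 2 of 8 subunits higher (Cct5 by 0.35 and Cct2 by 0.23), 3 lower (Cct6a by 0.26, Cct4 by 0.24 and Tcp1 by 0.15) and a median of -0.03. Prefoldin, which hands clients to CCT, had 2 of 6 subunits higher and 3 lower, with Pfdn5 at -0.91, Pfdn1 at 0.43 and Pfdn4 at 0.28. Over the 74 tested genes of all chaperone lists that are not members, 13 rose (17.6%) and 33 fell (44.6%), with a median of -0.08. Over all genes the shares were 26.3% and 36.8%. The 33 include the 12 ER chaperones given above. With median centring 59 rose and 8 fell, against 63% and 18.3% of all genes.

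Different probes of a gene did not always give the same answer. Of 20 members with more than 1 probe kept, 11 had the same call on every probe and 3 had called probes of opposite sign. Hspa8 was 1 of these. Its brightest probe, starting at base 2044 of the transcript, rose by 0.39, the probe at base 1812 had a ratio of 0.12 (adjusted p = 0.0678), and the probe at base 730 fell by 0.40 (adjusted p = 0.000569). The 3 probes repeated within themselves, at 0.46 and 0.33, 0.14 and 0.10, and -0.42 and -0.37, so the arrays agree within each probe while the probes do not. The direction of Hspa8 is therefore uncertain. Hspa4 rose by 0.27 at base 2811, fell by 0.33 at base 4302 and read -0.13 at base 4549. Dnajc5 fell by 0.24 at base 3604 and rose by 0.28 at base 955 and by 0.15 on a probe of another transcript. Dnajc10 read -0.13 at base 3994 and rose by 0.34 at base 631. In Hspa13, Dnajc11, Dnajb2 and Dnajb14 the brightest probe passed and the other did not. Those other probes read 0.05 for Hspa13, -0.13 for Dnajc11, -0.0011 for Dnajb2 and -0.09 for Dnajb14 (adjusted p from 0.115 to 0.992). By contrast, the 3 probes of Hspe1 rose by 0.25, 0.23 and 0.51, both probes of Hsph1 by 0.26 and 0.41, and both probes of Dnajb9 fell, by 0.69 and 0.27. Hspb1, Hspd1 and Dnajc3 have no second kept probe to set beside the first.

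**Figure D4:**
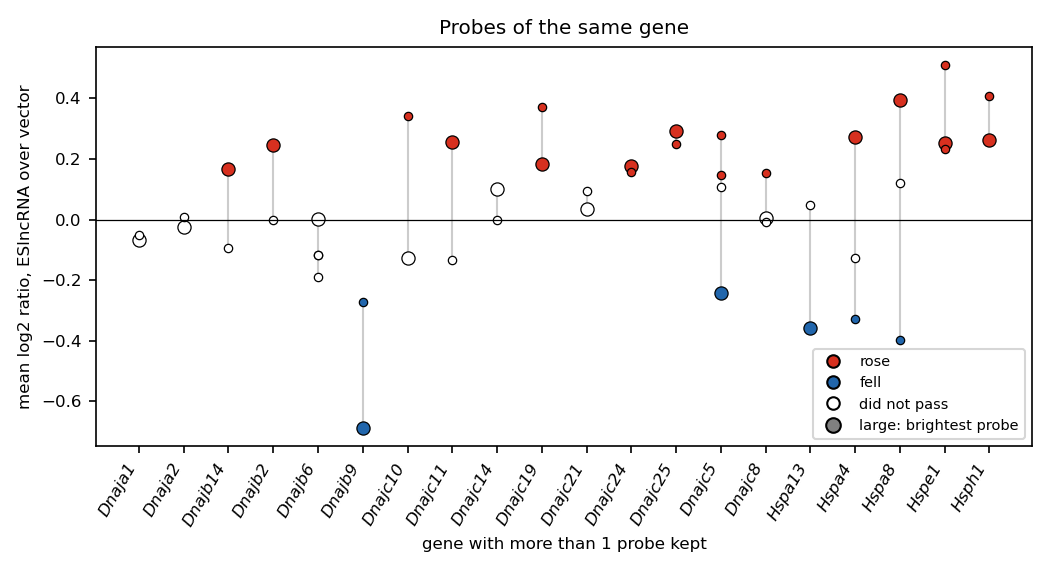
Mean log2 ratio of ESlncRNA over vector (y axis) for each kept probe of the 20 members with more than 1 (x axis), with the brightest probe drawn large. The probes of Hspa8 span -0.40 to 0.39, while those of Hspe1 all lie between 0.23 and 0.51.

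The ratios of bright members also depended on how the 2 dyes were balanced. The members were brighter than other genes, with a median average log2 signal of 10.94 against 9.21. Loess sets the trend of ratio with brightness to 0, and centring each array on its median does not. With median centring the median of all genes moved to 0.34 and that of the members to 0.65, which is 0.31 above all genes. The shift was 0.03 for the dimmest member, Dnajc28, and 1.09 for the brightest, Hsp90ab1. The count of members that rose was then 48 and that of members that fell 3, against 63% and 18.3% of all genes. Hspb1, Dnajb9 and Dnajb5 fell under both. Dnajb11, Dnajc4, Dnajc5, Dnajc12, Dnajc15 and Hspb11 fell with loess and rose with median centring, so their direction against 0 depends on that choice. Of these, Dnajc12 (0.23) and Hspb11 (0.29) stayed below the median of all genes with median centring, and the others lay above it. The mitochondrial median became 0.92, which is 0.58 above all genes. With the scanner's processed signals the median of all genes was 0.11, and the members' median was 0.20. Then 24 members rose and 4 fell (Hspb1, Dnajb9, Dnajc3 and Dnajc1), against 34.3% and 23.7% of all genes.

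**Figure D5:**
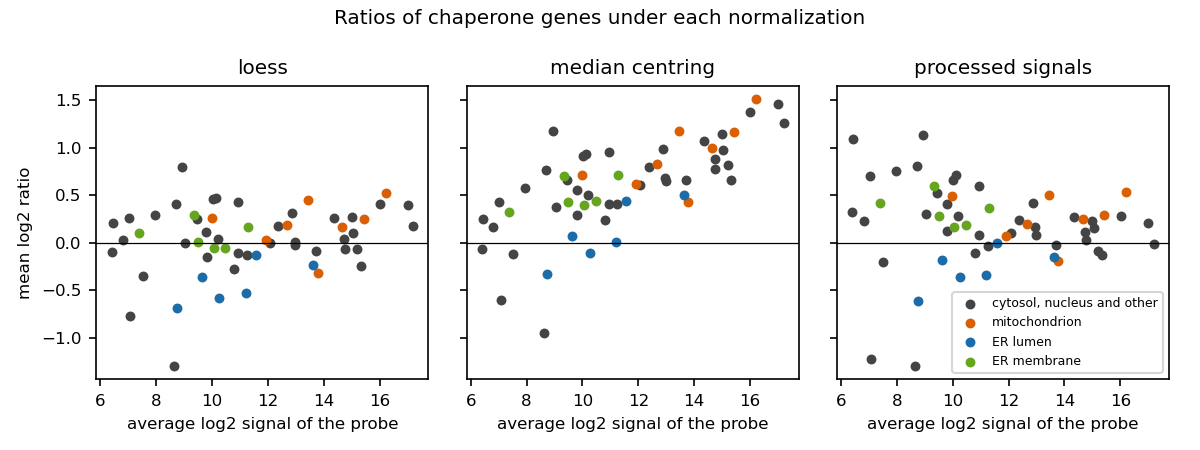
Mean log2 ratio of ESlncRNA over vector (y axis) against the average log2 signal of the probe after loess (x axis) for the 57 members, with loess, median centring and the scanner's processed signals in 1 panel each. With median centring the ratios climb with brightness, up to 1.51 for Hspd1, with 1.26 for the brightest member, Hsp90ab1. Hspb1 stays the lowest in all panels.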

How the data were processed

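The deposited scanner files hold intensities. Per the file headers the scanner software was Feature Extraction 10.1.1.1 and probe positions are on mm9. Mean spot signals and median local backgrounds were used. The deposited log10 ratio served to check that red over green is ESlncRNA over vector, and its r against the processed red over green intensities was 0.986 and 0.992. The authors' deposited log2 values served as an alternative, and the submitters' processing notes name limma for them, without a version. They correlated at r = 0.99996 with loess ratios made without background subtraction, which sets their scale and direction, and had medians of -0.02 and -0.01.

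For the main values normexp (offset 50) corrected the background, arrays were normalized by loess with control and marked spots at weight 0 (284 and 308 of 59305 spots), and spots of a probe were averaged, with R 4.3.3 and limma 3.58.1. No spot was saturated. Signals per channel were scaled with Aquantile. A probe was kept where either channel stood well above background on each array (26790 of 55681 probes), and a gene was read from its brightest kept probe. RefSeq (GRCm38.p6) named 26413 probes through an accession, 3859 through a symbol and 735 through an outdated one, while 24674 have the file's own name. The limma model was an intercept, with 1 residual and 5.27 prior degrees of freedom, which pairs the channels of an array. Adjustment was by Benjamini-Hochberg across every kept probe, with a threshold of 0.05. The steps were tested on simulated data in which few probes changed, as many up as down. That simulation cannot tell how loess behaves where changes are many and unequal, as in these data.

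The members and gene lists were chosen with earlier results of these data known. Levels, SD and adjusted p go to the 12 members rising and 12 falling most among those that passed with 1 sign on both arrays, to a set of well-known chaperones, to members at the threshold and to members whose probes disagree. In the other chaperone lists the 3 genes of smallest p are named, and further names there were picked after their values were seen. Cell marker lists are given by counts and summed signals, and the marker genes named were those that did not pass or were dim. Counts without Hspb8, and with Dnajc1 in the ER membrane, were added after seeing the data. Alternatives were normexp offset 0, no background subtraction, median centring, processed signals, the authors' values, no background filter, both channels above background, the mean of a gene's probes, no replicate block and each array alone. Both arrays lay on 1 slide with 1 scan time, so neither could be tested as a batch.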

Additional observations from a re-analysis of the deposited data

How the results depend on the processing

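Of the 37 members that passed, none turned from a call in one direction to a call in the other under the alternatives that give a test, with the exception of median centring, where 6 that had fallen rose (Dnajb11, Dnajc12, Dnajc15, Dnajc4, Dnajc5 and Hspb11). With median centring 48 members rose and 3 fell, 59 list genes rose and 8 fell, 12511 genes rose and 3633 fell over all genes, and the members' median was 0.65. Ratios then turned sign for 17 of the 57 members, 8 of them called; among the members given in full or at the threshold these were Dnajc1 (0.0096), Hspa13 (0.072), Dnajc15 (0.43), Dnajc12 (0.23), Dnajc5 (0.66), Dnajb11 (0.50), Hspb11 (0.29), Dnaja1 (0.82), Dnajc10 (0.44) and Dnajc4 (0.41). With processed signals 4 members fell, 17 list genes fell and 4700 genes fell over all, the members' median was 0.20, and 9 members turned sign, of which Hspb11 (0.12) and Hsp90ab1 (-0.015) had been called. With normexp offset 0, 20 list genes fell. As the mean of its probes Dnajc5 read 0.073. Without the array as a replicate block, which ignores that both channels share an array, 15 members rose and 9 fell, 20 list genes fell and 3446 genes rose over all; the 15 and 9 were among the 24 and 13. Each array alone gave a members' median of 0.030 (replicate 1) and 0.094 (replicate 2). The cause of these shifts was not tested, beyond the dependence on brightness given with the normalizations. The number of arrays limits the precision, since 1 residual degree of freedom remains.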
